A study of Mus musculus with 4 samples.

Results

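Transcripts of 31 red cell genes were followed in 4 RNA-seq libraries: 13 genes of the red cell membrane and its skeleton, and 18 genes for erythroid transcription factors, iron uptake, carbonic anhydrases, other enzymes and ubiquitin ligases. They are 31 of the 53715 genes counted, and each was found by its Ensembl identifier. The genes were picked by name as erythroid genes other than the globins and the haem enzymes. They were picked after red cell transcripts had been seen to be lower in these same libraries under the knockout label. The direction of the comparison between labels was thus known when the list was made, and the values below describe it without supporting it.

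The cells are labelled as primordial germ cells, from which eggs and sperm derive, of C57BL/6 mouse embryos at E12.5, obtained by magnetic sorting. Each library was made from 1000 cells by a modified Smart-seq2 method, which makes full-length cDNA from small samples. There were 2 libraries labelled WT (wild type) and 2 labelled Rif1_KO, a knockout of Rif1, a chromatin protein that acts in replication timing and DNA break repair. The labels do not give the deleted part of the gene, a Cre driver, the number of embryos or whether the libraries of a label came from separate embryos, so p-values speak only of how these libraries vary, which may be technical.

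Red cells form from progenitors that load themselves with haemoglobin while they lose most other functions. Their membrane is held by a skeleton of spectrin, which is tied to the anion exchanger Slc4a1 through ankyrin and to other membrane proteins through the product of Epb41. The transcription factors Gata1, Klf1 and Tal1 switch on these genes together with the globins, iron uptake feeds haem synthesis, and nucleated erythroid cells circulate through the gonad of the midgestation embryo as through every tissue with vessels.

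Many erythroid promoters carry GATA sites, the short sequence that Gata1 binds, and the stretches upstream of 5 members are shown because these genes span the membrane, the membrane skeleton, a transcription factor and an RNA factor and had low values under the label Rif1_KO. Sequences are from RefSeq, build GRCm38.p6, 5′ to 3′ in the direction of the gene, and stop before an annotated exon of GENCODE M21, apart from 1 exon base in that of Kel. Capitals mark GATA sites, searched on both strands as AGATAA and its 3 forms with T as the first letter, G as the last letter or both, so that a match on the other strand ends in the letters TATC and an A or T, and, in Epb42, the E-box of an E-box joined to a GATA site. Epb42 and Kel are shown because they had 2 matches each, and Rhd, Klf1 and Slfn14 were chosen among the members with 1 match after their values were seen.
Rhd, chr4:134864286-134864535, plus strand: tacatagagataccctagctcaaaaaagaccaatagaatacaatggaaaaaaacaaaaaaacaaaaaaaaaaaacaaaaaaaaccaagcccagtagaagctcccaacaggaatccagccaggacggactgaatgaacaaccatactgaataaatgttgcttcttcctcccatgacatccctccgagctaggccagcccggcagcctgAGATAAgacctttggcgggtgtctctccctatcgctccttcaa
Kel, chr6:41704339-41704575, minus strand: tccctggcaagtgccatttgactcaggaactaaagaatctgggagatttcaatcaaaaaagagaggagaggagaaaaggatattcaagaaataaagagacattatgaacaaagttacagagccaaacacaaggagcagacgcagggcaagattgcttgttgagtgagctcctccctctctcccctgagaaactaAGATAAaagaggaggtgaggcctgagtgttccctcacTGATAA
Epb42, chr2:121037073-121037127, minus strand: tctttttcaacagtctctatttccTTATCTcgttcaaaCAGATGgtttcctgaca
Klf1, chr8:84901732-84901927, plus strand: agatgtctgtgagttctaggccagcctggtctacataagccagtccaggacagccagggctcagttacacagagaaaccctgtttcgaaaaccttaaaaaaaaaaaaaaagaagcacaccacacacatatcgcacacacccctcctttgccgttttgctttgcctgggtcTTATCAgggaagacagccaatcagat
Slfn14, chr11:83286727-83286976, minus strand: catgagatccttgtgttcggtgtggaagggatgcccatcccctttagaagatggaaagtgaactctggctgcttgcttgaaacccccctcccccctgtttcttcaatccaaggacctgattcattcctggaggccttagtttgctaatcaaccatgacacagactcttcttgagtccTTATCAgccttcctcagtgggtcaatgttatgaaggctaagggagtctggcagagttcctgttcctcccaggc

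The RefSeq table held windows of 300 bases (250 before the start site and 50 after it) for 24 of the 31 members, 28 windows in all. A GATA site was found in 18 of the 28 windows (64.3%) and for 17 of the 24 members. Of all 32851 windows in the table, 29.8% held one. Counted from the start site, the first base of the match lay at -43 in Rhd, at -56 and -19 in Kel, at -226 in Epb42, at -80 in Klf1 and at -73 in Slfn14. Hemgn also had 2 matches, the first at -13, and its window lies in an exon of a longer transcript and is not shown. The composite of an E-box (CANNTG) joined to GATA by 9 bases was found in 1 member window, that of Epb42, where it overlaps the AGATAA match, and in 0.6% of all windows. A CACCC box, a form of the site bound by Klf1 and searched as CCA directly followed by CACCC on both strands, was found in 0 member windows and 3.6% of all windows. Such a match is a description of the letters and not a measured binding site.

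The label was checked first with Rif1 (ENSMUSG00000036202.16, chromosome 2, 52072832 to 52122383, mm10). Values are given here and below as WT replicate 1 and 2, then Rif1_KO replicate 1 and 2. Rif1 had 474 and 44 counts where the label is WT, and 1144 and 1207 where it is Rif1_KO. In CPM, counts per 1000000 of the library total scaled by its TMM factor, these were 43.7, 4.73, 86.2 and 63.9. Rif1 was higher in both libraries labelled Rif1_KO, so its counts do not bear out the labels. Its log2 fold change was 1.63 (SE 1.01, edgeR adjusted p = 0.717), and the libraries labelled WT differed by 9.14-fold. The deleted part of the gene is not known, so these counts cannot settle the labels. Libraries are therefore named only by their label, as is every direction. Totals were 11724630 to 14421298 counts per library. The 14 listed germ cell markers summed to 57.6, 461, 38 and 41.3 CPM. The high sum of WT replicate 2 came mostly from Dazl (196 CPM), Dppa3 (165 CPM, against 5.77 to 11.8 CPM elsewhere) and Ddx4 (59.2 CPM). Other markers had other orders: Prdm14 had 19.9, 18.4, 0.452 and 0.106 CPM, Prdm1 0.276, 0.322, 0.904 and 17.7 CPM, and Kit 0.829, 7.42, 11.5 and 2.86 CPM. Pou5f1 had 0.301 to 1.2 CPM. The 12 markers of gonadal supporting cells, such as Wt1 and Lhx9, had similar sums in all libraries, at 1140, 1070, 1340 and 1170 CPM. Single markers were uneven, with Nr5a1 at 60.1, 7.52, 24.7 and 22.2 CPM and Sox9 at 7.74, 18.9, 29.8 and 31.8 CPM. Of the 10 tested, 1 had both libraries labelled WT above both labelled Rif1_KO (18.4% of all genes). The reverse held for 2 (21.0% of all genes). The libraries thus held RNA of several cell types, and in such bulk samples fewer red cells and less RNA per red cell cannot be told apart.

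The 31 genes together took a far smaller share of the counts under the label Rif1_KO. They had 13863, 19058, 1928 and 2587 counts. Their share of all counts was 0.109% (95% Clopper-Pearson interval 0.107 to 0.11) and 0.163% (0.16 to 0.165), then 0.016% (0.0153 to 0.0167) and 0.0179% (0.0173 to 0.0186). No molecular identifiers were used, so the intervals describe counting error and nothing more. The mean share was 0.136% ± 0.0382 under the label WT and 0.017% ± 0.00139 under the label Rif1_KO (SD, n = 2 each), and the libraries of the labels did not overlap. Summed levels were 1280, 2050, 145 and 137 CPM, a ratio of the means of 11.8. The shares were not tested, because the smallest two-sided p of an exact permutation test on 2 and 2 libraries is 0.333. Car2 alone gave 35.9%, 34.8%, 17.6% and 6.61% of the member counts, most where the label is WT. Without Car2 the sums were 818, 1340, 120 and 128 CPM, with the same order of the labels.

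**Figure D1:**
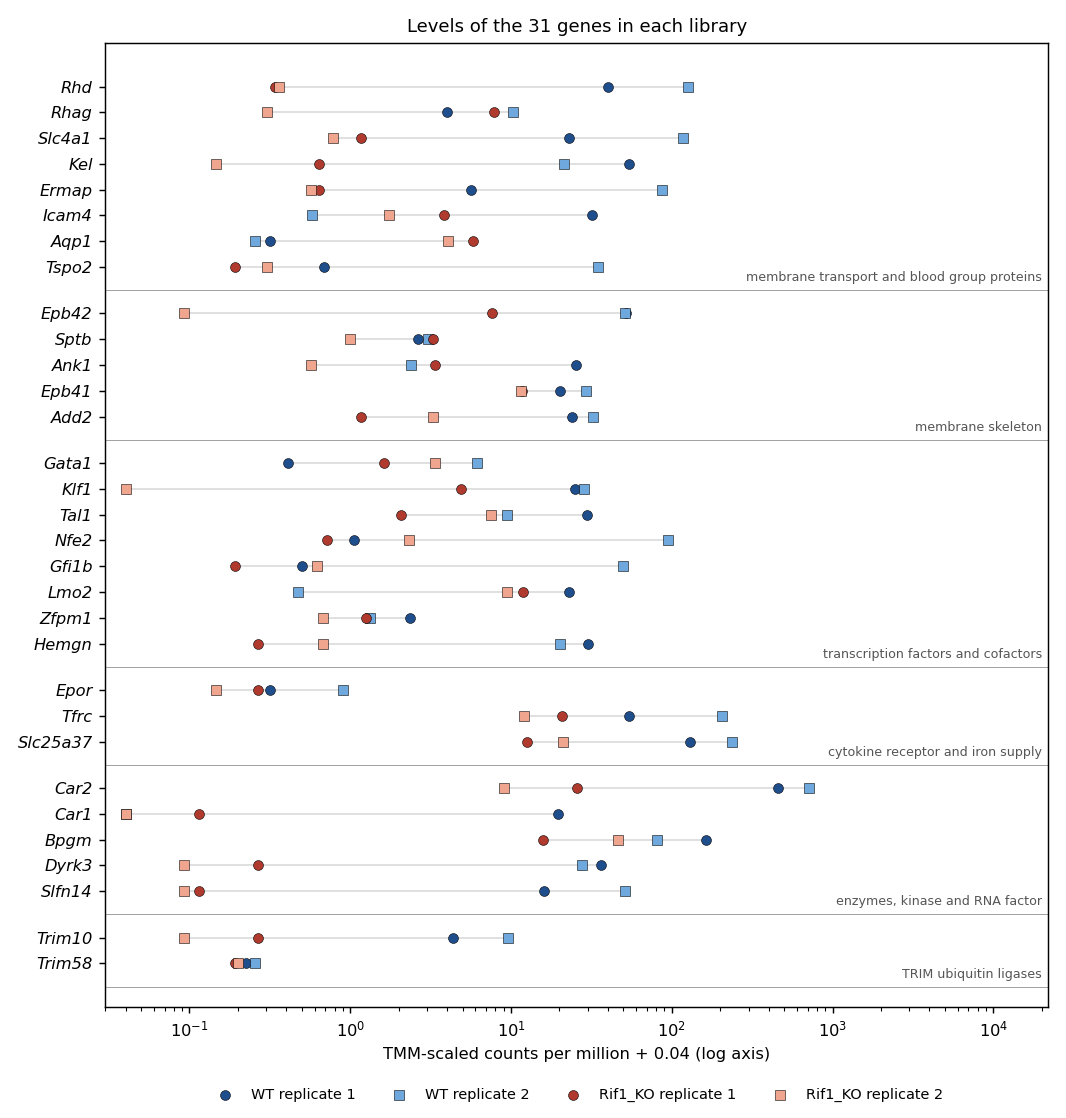
Level of each of the 31 genes in each library, as TMM-scaled CPM plus 0.04 on a log axis, grouped by role; circles are replicate 1, squares replicate 2, blue the label WT and red the label Rif1_KO. Most blue points lie to the right of the red ones, Aqp1 is the member whose red points both lie to the right, and the circle and square of a label lie far apart for Nfe2, Lmo2, Icam4, Epb42 and Klf1.

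Of the 31 genes, 26 had enough counts to be tested (edgeR's filterByExpr, minimum count 10), and Tspo2, Gfi1b, Epor, Car1 and Trim58 did not. No member passed edgeR's quasi-likelihood test at a Benjamini-Hochberg adjusted p under 0.05 over all 15466 genes tested, either lower (0.0129% of all genes called) or higher (0% called). At an unadjusted p under 0.05, 14 members were lower (3.05% of all genes) and 1, Aqp1, was higher (5.35% of all genes). Over all genes this gave 472 lower and 828 higher, and with upper-quartile factors 295 and 1055, while the members stayed at 14 and 1. DESeq2, which called 521 genes in all, called 12 members lower (1.24% of all genes called lower) and 0 higher (2.13% called higher). These were Rhd, Slc4a1, Kel, Ermap, Add2, Nfe2, Hemgn, Slc25a37, Car2, Dyrk3, Slfn14 and Trim10. limma-voom called 0 members (0.0129% of all genes), with 15 lower (3.26% of all genes) and 1 higher (6.30% of all genes) at an unadjusted p under 0.05. The median log2 fold change of the tested members was -3.46, where that of all tested genes was -0.11. A fitted value below 0 was found for 25 of 26 members (53.9% of all genes) and below -2 for 18 (8.94% of all genes). Both libraries labelled WT lay above both labelled Rif1_KO for 18 of 26 members (18.4% of all genes), and the reverse held for 1, Aqp1 (21.0% of all genes). Because the list was chosen with this comparison known, these counts against the background describe the choice of genes as much as the libraries.

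Among the 8 membrane transport and blood group genes, Rhd, Slc4a1, Kel and Ermap had far lower values under the label Rif1_KO, and Aqp1 had higher ones. Rhd, the single mouse gene for the Rh blood group protein (chromosome 4, 134864536 to 134896172), had 40.2 and 126 CPM in the WT libraries and 0.301 and 0.318 CPM in those labelled Rif1_KO. It rested on 436 and 1169 counts against 4 and 6, so that both libraries labelled Rif1_KO lay close to the level of 3 counts (0.226 and 0.159 CPM). Its log2 fold change was -8.02 (SE 1.07), with an edgeR adjusted p of 0.315 and a DESeq2 adjusted p of 4.79e-10. Rhag, the glycoprotein that carries Rh proteins to the membrane, did not follow: it had 3.96, 10.2, 7.84 and 0.265 CPM. The labels overlapped for Rhag, since Rif1_KO replicate 1 lay between the libraries labelled WT.

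Slc4a1, the anion exchanger that moves bicarbonate across the red cell membrane, had 22.8, 118, 1.13 and 0.742 CPM (log2 fold change -6.22, SE 1.2). The metalloprotease and blood group gene Kel had 54.3, 21.2, 0.603 and 0.106 CPM (log2 fold change -6.73, SE 1.56). For both genes the lower library labelled WT lay well above both labelled Rif1_KO, whereas the libraries labelled WT were in opposite order, replicate 2 being higher for Slc4a1 and replicate 1 for Kel. Ermap, an immunoglobulin-like protein of the erythroblast surface, had 5.62, 87.4, 0.603 and 0.53 CPM, and its log2 fold change of -6.34 (SE 1.66) became -3.29 without WT replicate 2. Its 2 values under the label WT differed by 15.4-fold. Tspo2, an erythroid relative of the mitochondrial protein Tspo, was not tested, with 0.645, 34.9, 0.151 and 0.265 CPM, so that only WT replicate 2 stood apart. Icam4, an adhesion protein of the red cell surface, had 32, 0.537, 3.77 and 1.69 CPM, with both extremes under the label WT. All 1110 exon bases of Icam4 are shared with the antisense gene model Gm47079, and without strand its reads cannot be told from those of that model.

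Aqp1, a water channel of red cells that vessels and other epithelia also make (chromosome 6, 55336432 to 55348555), had 0.276, 0.215, 5.8 and 4.03 CPM. These came from 3 and 2 counts and then 77 and 76, so that both libraries labelled WT were at or below 3 counts. The labels did not overlap, in the direction opposite to the other members. Its log2 fold change was 4.26 (SE 1.32), between 4.05 and 4.54 with any library left out, with an edgeR adjusted p of 0.571 and a DESeq2 adjusted p of 0.0754. The interstitial and stromal markers were also higher under the label Rif1_KO, with 715, 477, 1830 and 1540 CPM summed over 12 genes. The 12 endothelial markers summed to 403, 175, 92 and 206 CPM and did not separate the labels. Their part in the value of Aqp1 was not tested.

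In the membrane skeleton the 5 genes were uneven, from overlapping labels in Ank1 and Sptb to far lower values under the label Rif1_KO in Add2. Epb42, whose protein ties the anion exchanger to the skeleton, had 52 and 51.3 CPM under the label WT, a close pair, but 7.53 and 0.053 CPM in the other libraries. The 2 libraries labelled Rif1_KO differed by 95.3-fold, with 100 counts and 1 count. Its log2 fold change of -3.77 (SE 1.79) was -9.61 without Rif1_KO replicate 1 and -2.72 without Rif1_KO replicate 2. Add2, an adducin that caps actin in the skeleton, had 23.9, 32.4, 1.13 and 3.23 CPM, with a log2 fold change of -3.68 (SE 1.30) and a DESeq2 adjusted p of 0.00999. Both libraries labelled Rif1_KO lay far below both labelled WT for Add2. Ank1, the ankyrin of red cells, had 25.2, 2.36, 3.32 and 0.53 CPM, and its labels overlapped. Sptb, the erythroid beta-spectrin, was low throughout at 2.58, 3.01, 3.24 and 0.953 CPM, with a log2 fold change of -0.42 (SE 1.19). Epb41, a linker of spectrin and actin that many cell types make, had 20, 29.1, 11.6 and 11.5 CPM (log2 fold change -1.09, SE 1.04). Ank1 and Add2 share 6.4% and 3.5% of their exon bases with a gene model on the other strand, and Epb41 shares 1.5%.

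The 8 transcription factors and cofactors had a smaller median difference, -2.04 on the log2 scale over 7 tested genes, against -6.22 over 7 tested membrane transport and blood group genes. Hemgn, a nuclear protein of blood progenitors, had 30, 20.2, 0.226 and 0.636 CPM (log2 fold change -5.82, SE 1.51), and the labels were far apart. Klf1, which switches on adult beta-globin and many red cell genes, had 25.1, 28.4, 4.82 and 0 CPM, with close values under the label WT only. The count of 0 in Rif1_KO replicate 2 allows up to 0.159 CPM (3 counts), a bound for counting error only. Tal1, a partner of Gata1 and Lmo2 in a shared complex, had 29.8, 9.35, 2.03 and 7.47 CPM, and WT replicate 2 lay only a little above Rif1_KO replicate 2. Zfpm1, the Gata1 cofactor also called FOG, had 2.3, 1.29, 1.21 and 0.636 CPM, low in all libraries.

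The other 4 regulators differed by over 10-fold between the libraries labelled WT. Nfe2, a globin gene activator, had 1.01, 94.1, 0.678 and 2.28 CPM. DESeq2 called it lower (adjusted p = 0.0314), although WT replicate 1 lay between the libraries labelled Rif1_KO, and its log2 fold change of -4.99 (SE 2.02) was 0.55 without WT replicate 2. Gfi1b, a repressor needed for red cells and platelets, had 0.461, 49.6, 0.151 and 0.583 CPM and was not tested. Both were thus high in WT replicate 2 and near the low values in the other 3 libraries. Gata1, the main GATA factor of red cells (chromosome X), had 0.368, 6.13, 1.58 and 3.34 CPM, and both libraries labelled Rif1_KO lay between those labelled WT. Its log2 fold change was -0.39 (SE 1.51), and it was 2.72 without WT replicate 2 and -1.27 without WT replicate 1. Lmo2, the bridging protein of the Gata1 and Tal1 complex, had 22.9, 0.43, 11.9 and 9.37 CPM, high where Nfe2 and Gfi1b were low and near absent in WT replicate 2. Lmo2 and Tal1 are also made by endothelium, whose 12 markers summed to 403 CPM in WT replicate 1, more than in the other libraries (92 to 206 CPM). Megakaryocyte and platelet markers, which share Gfi1b and Nfe2 with red cells, summed to 11, 13, 19.9 and 3.6 CPM over 12 genes. The part of these cells in the values of Lmo2, Tal1, Nfe2 and Gfi1b was not tested.

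Both tested genes for iron supply had lower values in each library labelled Rif1_KO than in either labelled WT. Slc25a37, also called mitoferrin, brings iron into mitochondria for haem synthesis (chromosome 14, 69241848 to 69285112). It had 130, 235, 12.6 and 20.9 CPM, with means of 182 ± 73.8 and 16.7 ± 5.86 CPM (SD, n = 2 each). Its log2 fold change of -3.44 had the smallest SE of all tested members, 0.56, with an edgeR adjusted p of 0.407 and a DESeq2 adjusted p of 0.00473. Slc25a37 shares 6.3% of its exon bases with gene models on the other strand. Tfrc, the transferrin receptor that every dividing cell uses and erythroblasts use most, had 53.8, 206, 20.8 and 12 CPM. Its log2 fold change was -2.99 (SE 0.79), and -1.71 without WT replicate 2. Epor, the erythropoietin receptor, was not tested. It had 3, 8, 3 and 2 counts (0.276, 0.86, 0.226 and 0.106 CPM), and only WT replicate 2 held more than 3 counts. The ratio of the pooled levels was 3.51 with a 95% counting interval of 1.12 to 12.9, which leaves out the spread between libraries.

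Enzymes, a kinase and an RNA factor held the most abundant member and the lowest values under the label Rif1_KO. Car2, a carbonic anhydrase that speeds carbon dioxide transport (chromosome 3, 14886273 to 14900770), had 459, 712, 25.6 and 9.06 CPM, from 4983, 6623, 340 and 171 counts. Its means were 585 ± 179 and 17.3 ± 11.7 CPM (SD, n = 2 each). The log2 fold change of -5.08 (SE 0.62) had the smallest edgeR adjusted p of the members, 0.275, and a DESeq2 adjusted p of 1.43e-05. Car1, a neighbouring carbonic anhydrase gene, had 213, 0, 1 and 0 counts, found almost only in WT replicate 1 while Car2 was high in both libraries labelled WT. Bpgm, which makes the phosphoglycerate that lowers the oxygen affinity of haemoglobin, had 162, 80.6, 15.7 and 46.2 CPM (log2 fold change -1.97, SE 0.70). The libraries of the labels did not overlap for Bpgm, and Rif1_KO replicate 2 came nearest to the label WT.

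Dyrk3, a kinase enriched in erythroid progenitors, had 391 and 257 counts under the label WT (36 and 27.6 CPM) and 3 and 1 under the label Rif1_KO (0.226 and 0.053 CPM). The ratio of the pooled levels was 258, with a 95% counting interval of 100 to 951. Slfn14, a ribosome-bound endoribonuclease of reticulocytes and platelets, had 173 and 476 counts (15.9 and 51.2 CPM) against 1 and 1 (0.0753 and 0.053 CPM), a ratio of 518 with an interval of 143 to 4280. For both genes the libraries labelled Rif1_KO held no more than the 3 counts taken as the floor, which limits how closely the ratios can be known. The counting intervals, here and for Trim10 below, leave out the spread between libraries. The log2 fold changes were -7.79 (SE 1.59) for Dyrk3 and -8.85 (SE 1.66) for Slfn14. Both had an edgeR adjusted p of 0.571, while DESeq2 called both lower. The TRIM ubiquitin ligases, enzymes of late red cell maturation, were both low. Trim10 had 47, 89, 3 and 1 counts, a ratio of 54.2 (20.7 to 202). Trim58 had 2 or 3 counts in every library and could not be compared.

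**Figure D2:**
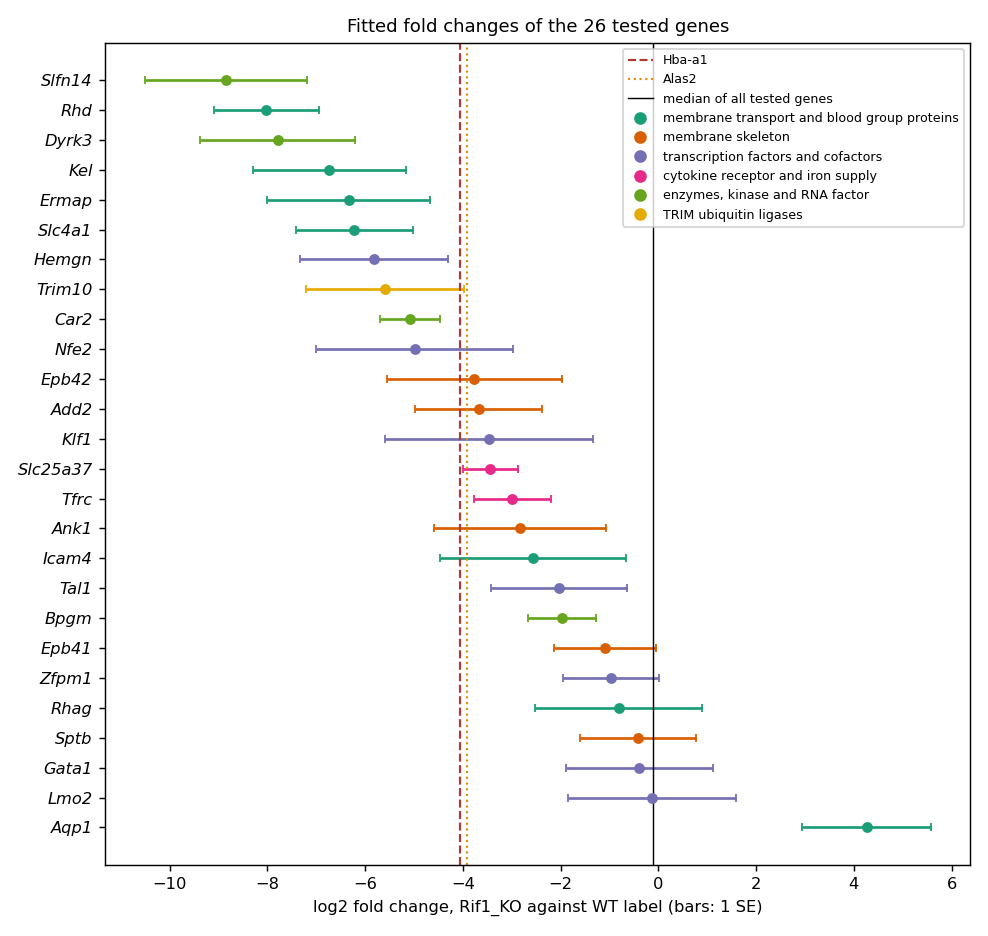
Fitted log2 fold change of the 26 tested members, Rif1_KO label against WT label, with bars of 1 SE and colours for the role; vertical lines mark Hba-a1, Alas2 and the median of all tested genes. The points run from Slfn14 at -8.85 to Lmo2 at -0.14, with Aqp1 alone to the right at 4.26, and 10 members lie to the left of Hba-a1 at -4.05.

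Compared per 1000 bases of exon, the order of the members under the label WT was led by Car2, with 242 ± 73.8 CPM per kb (SD, n = 2). Rhd followed with 52 ± 37.9, Bpgm with 33.9 ± 16.1, Slc25a37 with 30.3 ± 12.3, Tfrc with 21 ± 17.5 and Klf1 with 17.5 ± 1.53 CPM per kb. Only the step from Car2 to Rhd exceeded the spread, at 190 and 294 against 25.2 and 78.8 CPM per kb in the libraries. From Rhd to Klf1 the ranges of neighbours in this order overlapped. Under the label Rif1_KO the means were 8.62 ± 6.01 for Bpgm, 7.16 ± 4.84 for Car2, 4.91 ± 0.826 for Lmo2 and 2.78 ± 0.973 CPM per kb for Slc25a37 (SD, n = 2 each). Their order differed between the libraries, with Car2 first at 10.6 in replicate 1 and Bpgm first at 12.9 in replicate 2. Rhd was at 0.189 and 0.199 CPM per kb there, below Bpgm, Car2, Slc25a37 and Tfrc in both libraries.

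The members were also read against the globins. Globin genes took 11.8%, 8.92%, 1.08% and 0.555% of all counts, and the member counts came to 0.923%, 1.82%, 1.47% and 3.23% of the globin counts, with overlapping labels. Hba-a1, an adult alpha-globin whose count is uncertain because of its near-identical copy Hba-a2, had a log2 fold change of -4.05 (SE 0.30, edgeR adjusted p = 0.036). A value below that was found for 10 of 26 tested members (1.18% of all genes). Set against Hba-a1 within each library, 8 members were lower in both libraries labelled Rif1_KO (0.310% of all genes): Rhd, Slc4a1, Kel, Hemgn, Car2, Dyrk3, Slfn14 and Trim10. In the same measure 9 were higher in both (89.8% of all genes), namely Icam4, Aqp1, Sptb, Epb41, Gata1, Lmo2, Zfpm1, Tfrc and Bpgm, and 9 overlapped. The divisor is itself far lower under the label Rif1_KO, so a gene that is lower by less, as Tfrc and Bpgm are, reads as higher here. Per 100000 Hba-a1 counts, Rhd had 73, 241, 7.78 and 12.2 counts, while Epb41 had 36.4 and 55.9 and then 300 and 442. Alas2, the erythroid enzyme of haem synthesis, had 263, 246, 12.9 and 20.7 CPM (log2 fold change -3.92, SE 0.46).

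Replicates of a label disagreed for some members, as the plot of replicate against replicate shows, and for many other genes too. Between the libraries labelled WT, 6 of 26 tested members (23.1%) differed by over 10-fold, near the 20.2% of all genes: Ermap, Icam4, Ank1, Gata1, Nfe2 and Lmo2. Between those labelled Rif1_KO, 3 did (11.5%, against 6.61% of all genes): Rhag, Epb42 and Klf1. All 3 were higher in Rif1_KO replicate 1, as were 18 of 26 members (49.9% of all genes). The embryonic globins had the same order, with Hba-x at 2980 and 29.9 CPM and Hbb-y at 1430 and 49.4 CPM in the libraries labelled Rif1_KO. Car2, with 25.6 and 9.06 CPM, lay the same way with a smaller step, while Slc25a37, Bpgm and Alas2 were higher in replicate 2. The 2 libraries labelled Rif1_KO thus differed in the levels of single red cell genes, at nearly equal summed member levels of 145 and 137 CPM. Rhag, Epb42 and Klf1 rested on 104, 100 and 64 counts in replicate 1 and on 5, 1 and 0 in replicate 2. The cause of the difference was not tested.

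**Figure D3:**
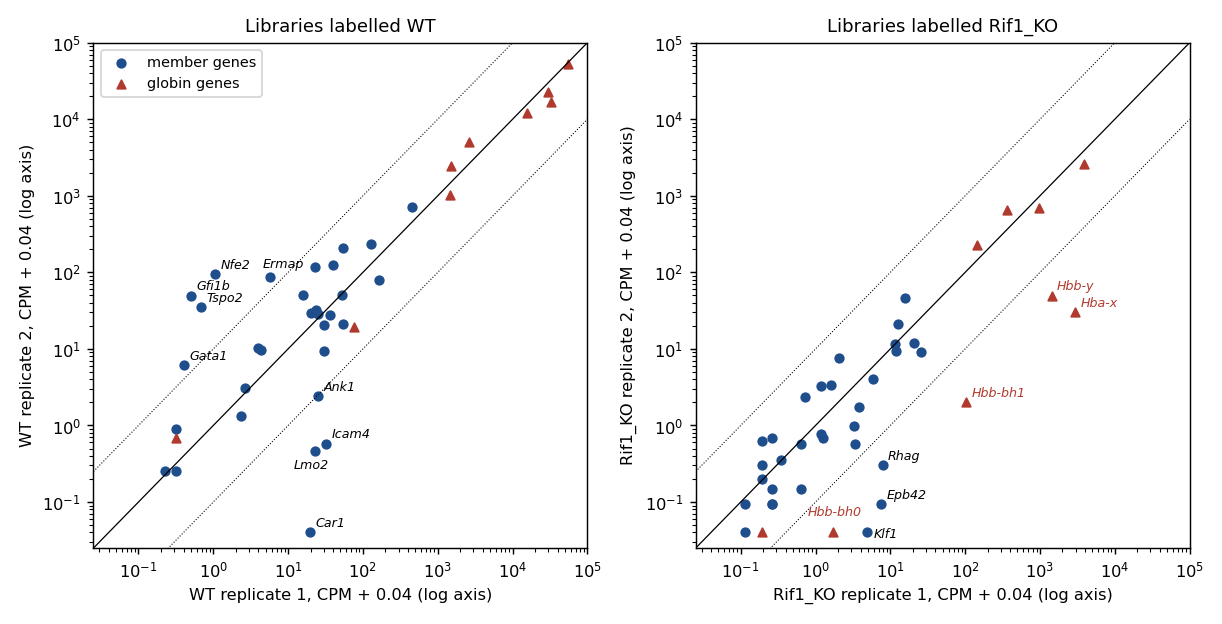
Level of each member (blue circles) and globin gene (red triangles) in replicate 2 against replicate 1, for the label WT (left) and Rif1_KO (right), in CPM plus 0.04 on log axes; the solid line marks equal values and the dotted lines 10-fold differences. Nfe2, Gfi1b and Tspo2 stand far above the line on the left, Lmo2, Icam4 and Car1 below it, and on the right Rhag, Epb42 and Klf1 lie below it with Hba-x and Hbb-y.

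Other genes of the red cell were read from lists for the same pathways, and 0 of their 55 tested genes passed edgeR's test. At an unadjusted p under 0.05, 1 was lower and 0 higher among membrane genes, and 1 lower and 2 higher among regulators. Among genes of iron and clearance 4 were lower and 0 higher. Over all genes 3.05% were lower and 5.35% higher at that p. DESeq2 called 3 of the 55, and over all genes it called 1.24% lower and 2.13% higher. Of 22 other erythroid membrane genes, 17 were tested with a median log2 fold change of -0.84, and DESeq2 called 1 lower and 0 higher. Among those not called, Gypc had 67.5, 36, 2.11 and 15.5 CPM, Xk, the partner of the Kel protein, had 5.8, 15.5, 5.35 and 0.212 CPM, and Slc29a1 had 34.3, 46.5, 18.4 and 19 CPM. As for Rhag, Rif1_KO replicate 2 lay far below the other libraries for Xk. Unlike for Rhag, Rif1_KO replicate 1 lay just below both libraries labelled WT, so the labels of Xk did not overlap. Bsg, a membrane protein of many cells, had 571, 529, 196 and 416 CPM. On the higher side by fitted values stood Abcb6 with 1.29, 2.15, 10 and 11.3 CPM, Dmtn with 1.66, 2.26, 6.03 and 4.4 CPM, Cd44, Tmod1 and Bcam, and none of these was called by DESeq2.

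Among 23 other regulators of red cell development, 20 were tested, with a median log2 fold change of -0.07. DESeq2 called 1 lower and 1 higher (1.24% and 2.13% of all genes). Lyl1, a close relative of Tal1, was lower, with 22.1, 2.15, 0.753 and 0.106 CPM (DESeq2 adjusted p = 0.0295), and Sox6, which takes part in silencing embryonic globin, was higher, with 1.11, 2.04, 19.6 and 12.6 CPM (0.0466). Bcl11a, another globin repressor, had 21.9, 1.18, 0.98 and 0.212 CPM, high in WT replicate 1 as Lyl1, Tal1 and Lmo2 were. Zbtb7a had 1.93, 13.9, 0.904 and 0.953 CPM, and Myb 10.1, 0.752, 0.452 and 1.59 CPM. The kinase Jak2, which acts below Epor, had 0.368, 0.537, 5.12 and 5.14 CPM, not called by DESeq2 (adjusted p = 0.147). Stat5b, Mafg and Kdm1a also had fitted values above 0 and Nfe2l1 below 0, with none called.

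Of 20 genes for iron uptake, red cell protein stability and organelle clearance, 19 were in the table (Ahsp was not matched) and 18 tested, with a median of -0.73 and none called by DESeq2. The ferritin genes Ftl1 and Fth1 had 4850, 3600, 1860 and 2130 CPM and 2500, 1690, 894 and 850 CPM, lower under the label Rif1_KO by log2 fold changes of -1.09 (SE 0.26) and -1.26 (SE 0.28). These small differences stand beside the much larger one of Slc25a37. Xpo7, a nuclear export factor of erythroid maturation, had 57.8, 79.5, 12 and 13.3 CPM (log2 fold change -2.44, SE 0.70). Prdx2 and Bnip3l, which protect red cells from peroxide and clear their mitochondria, had log2 fold changes of -0.86 and -0.70, and Ireb2 had one of 0.75. For comparison, 8 tested globin genes had a median of -4.09 with 2 called by edgeR, 7 called lower by DESeq2 and 8 lower at an unadjusted p under 0.05. The 9 haem synthesis enzymes had a median of -1.62, with 0 called by edgeR. DESeq2 called 2 of them lower and 1 higher, and 5 were lower and 1 higher at an unadjusted p under 0.05. Of all genes, edgeR called 0.0129% lower and 0% higher, and DESeq2 1.24% lower and 2.13% higher. At an unadjusted edgeR p under 0.05 the shares of all genes were 3.05% and 5.35%. Among the enzymes Uros stood apart with 1.01, 2.58, 24.1 and 51.4 CPM, which DESeq2 called higher (adjusted p = 0.00262).

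**Figure D4:**
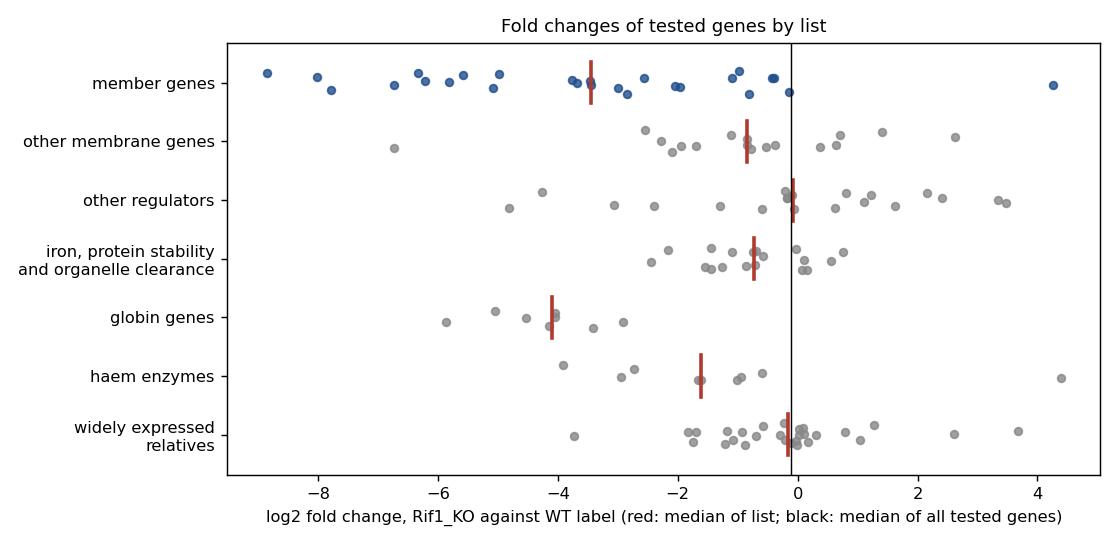
Fitted log2 fold change of each tested gene of 7 lists, Rif1_KO label against WT label; points are genes, red bars the median of a list and the black line the median of all tested genes. The bars of the members (-3.46) and globins (-4.09) lie far to the left of the black line at -0.11. Those of other regulators (-0.07) and of relatives listed as widely expressed (-0.16) lie beside it.

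Relatives of the members from the same protein families, listed as widely expressed, were also read. Some of them, such as Car3, Gata4 and Gata6, belong to particular tissues. Of the 35 relatives 28 were tested, with a median of -0.16 and 0 called by edgeR or DESeq2. At an unadjusted p under 0.05 edgeR gave 1 lower and 1 higher (3.05% and 5.35% of all genes). Tspo, the relative of Tspo2, had 123, 52.8, 16 and 38.1 CPM, and Car3, a muscle carbonic anhydrase, had 94.5, 57.6, 45.7 and 20 CPM. Trim27 had 67.7, 49.6, 16.5 and 18.7 CPM, and Lmo4 48.2, 19.8, 0.301 and 4.77 CPM, both without overlap of the labels. Gata4 and Gata6, GATA factors of the gonad, had 20.4, 39.1, 34.4 and 68.4 CPM and 50, 91.6, 31.5 and 31.6 CPM, so that GATA factors other than Gata1 were present in all libraries. Klf2 and Klf3 had 0.461, 0.537, 3.32 and 9.69 CPM and 2.86, 1.72, 18.9 and 9.16 CPM, in the direction opposite to Klf1.

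By promoter sequence, the 14 tested members with a GATA match had a median log2 fold change of -3.72, and 11 of them lay below -2. The 6 with a window and no match (Aqp1, Gata1, Zfpm1, Tfrc, Bpgm and Dyrk3) had a median of -1.47, with 2 below -2, and the 6 without a window had one of -4.22. Dyrk3, without a match, was at -7.79, and Rhd, with a match, was at -8.02. The ranges of the groups overlapped (-8.85 to -0.42 with a match, -7.79 to 4.26 without), and the difference was not tested.

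Markers of other cell types were read beside the members, as the plot of marker sums shows. Of 12 leukocyte markers the sum was 5.44, 23.8, 8.89 and 9.11 CPM, with 1, 3, 0 and 1 of them at 0 counts. The 7 mast cell and basophil markers, a lineage that shares Gata1 and Tal1 with red cells, summed to 24.6, 2.9, 11.3 and 3.55 CPM, with 3, 2, 0 and 4 at 0. Of the megakaryocyte and platelet markers 0, 2, 1 and 1 were at 0, and Pf4, a defining gene, had 0.184, 0.107, 7.91 and 0.053 CPM. None of these 3 lists, all with low sums, separated the labels. The member sum did, but the members were picked with that direction known, so the contrast is only a description. Mesonephric and epithelial markers summed to 211, 261, 68.8 and 161 CPM over 10 genes, and the sum was lower in both libraries labelled Rif1_KO. Single genes were uneven, and 2 of the 8 tested had both libraries labelled WT above both labelled Rif1_KO (18.4% of all genes). Krt8, with 84.4, 103, 10.5 and 37 CPM, gave much of the difference, while Pax8 overlapped with 8.57, 12.3, 10.7 and 10.2 CPM.

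**Figure D5:**
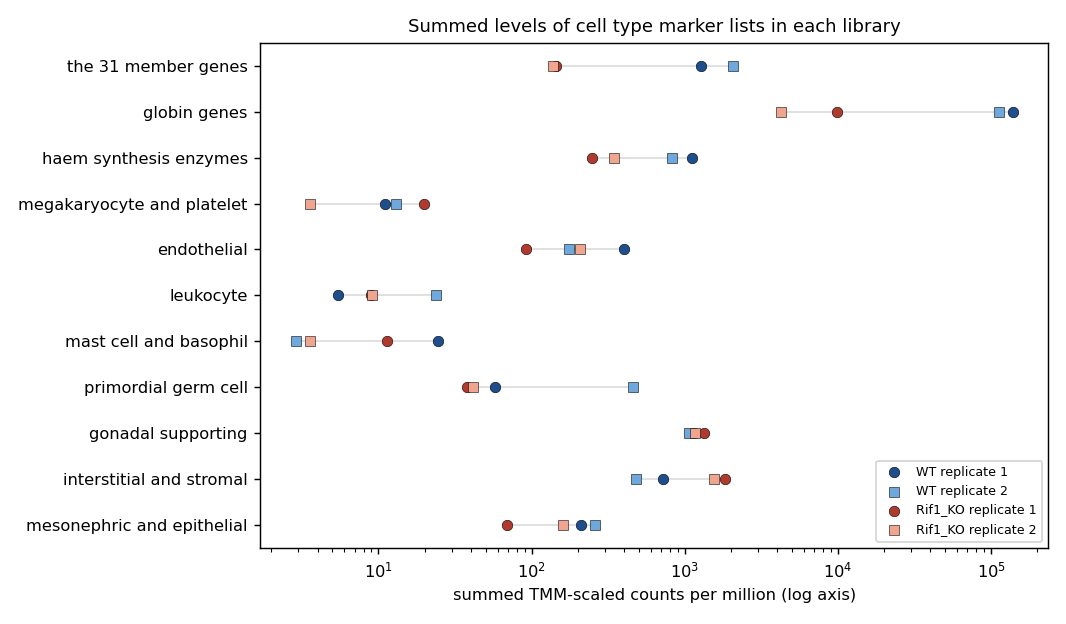
Summed level of the members, the globin genes, the haem synthesis enzymes and 8 lists of cell type markers in each library, in TMM-scaled CPM on a log axis; colours and shapes mark the libraries. The labels lie apart for the members (1280 and 2050 against 145 and 137), the globins and the haem enzymes. They also lie apart for the germ cell markers and the mesonephric and epithelial markers. They lie apart the other way for interstitial and stromal markers, and supporting cell markers nearly coincide.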

How the data were processed

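RNA from 1000 cells per library was measured in 4 libraries. The deposited values are raw fragment counts per gene in a single table. Per the file headers, the authors counted with featureCounts 1.6.2 and the genes of GENCODE M17, with a mapping quality of at least 30, reads of several alignments and of overlapping genes counted for each gene, and no strand option. HISAT2, SAMtools, Trim Galore and FastQC were used with build mm10, per the submitters' processing notes. Counts of overlapping and antisense genes are therefore uncertain. Exon lengths are those deposited with the counts.

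The members and all gene lists were chosen with earlier results of these data known. The genotype labels gave the groups, and the titles gave the replicate numbers. The 2 libraries of a label differed by more than sampling noise (chi-square per degree of freedom 107 for WT and 86.6 for Rif1_KO). Genes were kept with filterByExpr (minimum count 10), which left 15466 of 53715, and tested with edgeR's quasi-likelihood test (edgeR 4.0.16, R 4.3.3, TMM factors 0.856, 0.8, 1.11 and 1.32, robust, no covariate). P-values were Benjamini-Hochberg adjusted over all genes at 0.05. The biological coefficient of variation was 0.84. SE was computed as the log2 fold change over the root of the F statistic. DESeq2 1.42.0 and limma-voom (limma 3.58.1) were alternatives, as were other scaling factors, other filters, a replicate block, removal of abundant RNAs and leaving out each library. The median log2 fold change of all genes was -0.11 by TMM, and other scaling moved it to -0.19 (DESeq2 size factors) or 0.16 (upper-quartile factors). Single values are relative to it. The floor was 3 counts. Ratios of pooled levels carry exact counting intervals.

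Members are given by library, in CPM or counts. From each other list the rule named up to 5 genes per direction with the smallest edgeR p and at least 5 CPM in the mean of a label. A gene that this rule takes is not reported here. From the markers it named sums and counts at 0. Single markers named in the text, the 3 tied promoters, and genes given outside the rule were chosen after their values were seen. All 4 columns of counts were used. The steps were tested on simulated counts.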

Additional observations from a re-analysis of the deposited data

How the results depend on the processing

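The count of called genes depended on the test and on single libraries. With all libraries edgeR called 2 genes of all tested, 0 members and 0 of 55 genes in the other erythroid lists. DESeq2 called 521, 12 and 3, and edgeR without the filter on low counts called 54, 8 and 1. Upper-quartile factors, the stricter filter and removal of globin, mitochondrial and rRNA-region genes each called 0 genes in all. The replicate block called 7 genes, 1 member and 1 gene of the other lists. The deviations of same-numbered libraries had a correlation of -0.0252, so no shared shift was seen. The labels state no pairing, and this value cannot show whether same-numbered libraries were handled together. The block is given only here. When a single library was left out, the lone library being taken to vary like the other pair, 5 to 1345 genes, 0 to 16 members and 0 to 5 genes of the other lists were called. The high counts came without WT replicate 1 (1345 genes, 16 members) and without WT replicate 2 (890 genes, 12 members), and the median member log2 fold change ran from -4.63 (without Rif1_KO replicate 1) to -3.37. The share of the members was 0.109% to 0.163% for WT and 0.016% to 0.0179% for Rif1_KO with a library left out, and 0.245% and 0.0223% when abundant RNAs were removed from the total. The cause of these differences was not tested.

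Of 204 single-member values under the settings that keep all libraries, 197 kept their direction and 21 were called where the main edgeR fit made no call. DESeq2 gave 12 of these calls, edgeR without the filter on low counts 8, and edgeR with the replicate block 1. Gata1 was 0.53 with limma-voom, 0.01 without the filter and 0.51 with the replicate block, and Lmo2 was 1.69, 0.07 and 1.62 in these settings and 0.16 with upper-quartile factors. With a library left out, 19 of 26 members stayed below 0 in every fit, and Aqp1 stayed above it. The others ran from -4.6 to 0.21 for Rhag, -3.54 to 2.38 for Icam4, -1.46 to 0.27 for Sptb, -1.27 to 2.72 for Gata1, -6.02 to 0.55 for Nfe2 and -1.1 to 4.65 for Lmo2. With 4 libraries, depth limited the values of Epor and Trim58 and those of Dyrk3, Slfn14, Trim10 and Car1 under the label Rif1_KO.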
